A study of Mus musculus with 20 samples.

Results

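The serpin genes expressed in mouse liver were followed across sex and strain. Members were chosen by symbol: every autosomal locus named Serpin with a clade letter from a to i and a number, with 10 or more counts in at least 5 of 20 livers. Of 64 loci with such a symbol among 25444 loci in the tables, 32 were kept. Of the others, 31 autosomal loci lay under the count limit, 16 of them with 0 counts in every liver, and Serpina7 lies on the X chromosome. The livers came from female (F) and male (M) mice of the inbred strains C57BL/6N (B6) and C3H/HeN (C3), aged 20 weeks, with 5 mice in each of the 4 groups, B6 F, B6 M, C3 F and C3 M. The labels name no treatment and no transgene. Each sample came from the left lateral lobe of 1 mouse, and females and males were kept in different rooms, so that sex and room cannot be told apart. Strand-specific libraries of total RNA without ribosomal RNA were sequenced in 3 pools, to which libraries had been assigned at random, and each library held 27370921 to 46835745 read pairs counted on genes.

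Serpins are a family of proteins of which most are suicide inhibitors of serine proteases. An exposed strand, the reactive centre loop, is offered to the protease as bait; once it is cut, the serpin folds back on itself, drags the protease along and traps it. The bases that code for this loop therefore set which protease is caught, and they are among the fastest changing parts of rodent serpin genes. Liver cells secrete many serpins into blood, where they restrain clotting, the breakdown of clots, complement and neutrophil elastase, while a few members have lost inhibition and carry hormones. Clade B serpins stay inside cells. In mouse, the genes of clade a have multiplied in tandem on chromosome 12, where humans have single genes for α1-antitrypsin and α1-antichymotrypsin.

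The 32 members together took 3.03 to 7.02% of the TPM (a level per gene length, scaled to a common sum in each library) of a library. By group the lowest, median and highest share were 3.03, 3.76 and 4.32% in B6 F, 4.08, 4.90 and 6.42% in B6 M, 3.43, 3.69 and 4.27% in C3 F and 5.91, 6.48 and 7.02% in C3 M livers. Levels differed widely between members. The 7 members above 1000 TPM on average held 89.0% of the summed mean TPM of the 32, namely Serpina3k (12364 TPM), Serpina1e (7579), Serpina1b (7105), Serpina1c (5634), Serpina1d (5129), Serpinc1 (2379) and Serpina1a (2145). A further 9 members lay between 100 and 1000 TPM, 12 between 1 and 100 TPM, and 4 under 1 TPM, among them Serpina5, Serpina3h and Serpini1. At the count limit itself, Serpina5 had 10 counts or more in 10 livers, Serpini1 in 12 and Serpina3h in 13, while Serpina3c and Serpina3i, just under the limit, each had them in 4.

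Differences were tested with edgeR's quasi-likelihood test on the counts of all 13704 genes tested, with group and pool in the model. To be called, a gene needed a Benjamini-Hochberg adjusted p under 0.001 together with a fold change, higher or lower, of more than 0.5 on the log2 scale. Values per liver are given as CPM, counts scaled to the library total after TMM normalization, in the order of the replicate numbers 1 to 5, and can be compared between livers but not between genes of different length. Log2 fold changes are F over M or C3 over B6, followed by their SE.

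Between the sexes 12 of the 32 serpin genes were called in at least 1 strain, as were 9.98% of all genes tested, and between the strains 5 in at least 1 sex, as were 12.8% of all genes. Between F and M livers, 10 of the 32 members were called in B6, where 6.34% of all genes tested were called, and 10 of 32 in C3, where 6.90% were. In each strain 4 members were higher in F and 6 higher in M livers. Between strains, 3 members were called in F livers (9.40% of all genes) and 5 in M livers (9.64% of all genes), shares of 9.38% and 15.6% of the members. The median of the absolute log2 fold change was 0.53 over the members and 0.20 over all genes for sex in B6, 0.42 and 0.22 for sex in C3, 0.34 and 0.18 for strain in F, and 0.29 and 0.20 for strain in M livers. Signed medians stayed near 0, at 0.01 over members and 0.00 over all genes for sex in B6, -0.02 and 0.01 for sex in C3, 0.14 and 0.02 for strain in F, and 0.17 and 0.01 for strain in M livers. In all, 14 members were called at least once. Of the 12 called for sex, 8 were called in both strains and in the same direction: Serpina1c, Serpina1e, Serpina3k, Serpina12 and Serpine2 higher in M, and Serpina3m, Serpina6 and Serpinb8 higher in F livers. The comparisons of sex and of strain use the same livers and are not independent of each other. All 28 called differences had the same direction in each of the 3 pools. Pool 2 held a single liver of B6 F, of B6 M and of C3 F, and pool 3 a single liver of C3 M. Differences within those pools therefore rest on single livers. The pools hold the same livers as the fit and are no independent check of it. With pool left out of the model 15 of the 28 were no longer called: Serpina1c, Serpina3k and Serpina3m for sex in both strains, Serpina1e, Serpina5 and Serpinb9 for sex in B6, Serpina4-ps1, Serpina6, Serpina12 and Serpinb1a for sex in C3, and Serpina11 and Serpina12 for strain in M livers.

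**Figure D1:**
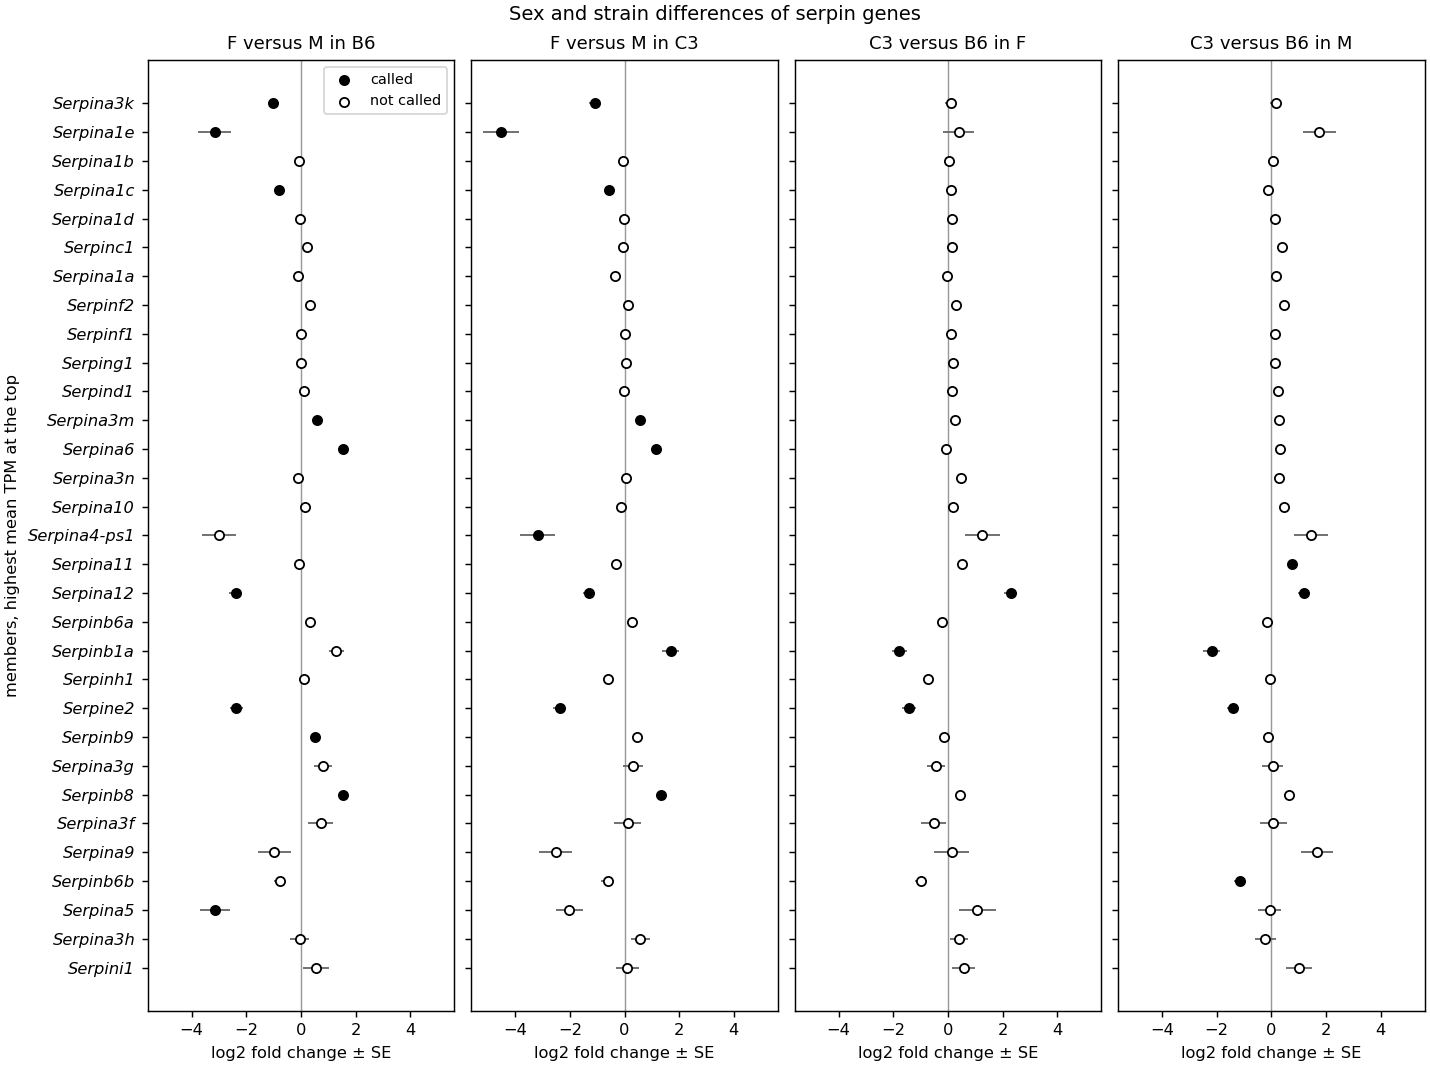
Log2 fold change (x axis, with SE) of 31 of the 32 serpin genes (y axis, highest mean TPM at the top) in 4 comparisons, F over M in B6 and in C3, and C3 over B6 in F and in M livers. Filled points were called and open points were not. The sex comparisons hold 10 filled points each and the strain comparisons 3 and 5, and Serpina1e in C3 lies furthest from 0, at -4.52.

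The copies of the α1-antitrypsin gene, Serpina1a to Serpina1e, inhibit neutrophil elastase and related proteases or, with an altered loop, other targets. They lie on the minus strand of chromosome 12 and their coding sequences of 1242 bases were 96.3 to 98.5% identical. The stretch that codes for the reactive centre loop is printed for each copy, since it sets which protease is caught and holds differences by which reads can be assigned. It was read from the GENCODE vM1 models on NCBIM37 (mm9), as the coding strand, and capitals mark bases unlike Serpina1a at the same position:
Serpina1a, chr12:105091975-105092040: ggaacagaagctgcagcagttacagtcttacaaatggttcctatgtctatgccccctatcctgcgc
Serpina1b, chr12:104966542-104966607: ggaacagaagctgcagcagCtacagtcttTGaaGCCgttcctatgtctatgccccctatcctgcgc
Serpina1c, chr12:105133312-105133377: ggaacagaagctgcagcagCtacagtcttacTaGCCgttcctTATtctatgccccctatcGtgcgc
Serpina1d, chr12:105001980-105002045: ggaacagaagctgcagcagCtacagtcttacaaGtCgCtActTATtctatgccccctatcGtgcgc
Serpina1e, chr12:105185318-105185383: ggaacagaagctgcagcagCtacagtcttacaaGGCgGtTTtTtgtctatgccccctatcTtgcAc
Of these 66 bases, 6 in Serpina1b, 9 in Serpina1c, 9 in Serpina1d and 10 in Serpina1e were unlike Serpina1a. The reference is a B6 genome and the sequence of these genes in C3 was not analysed here. Read pairs that fit several places were not counted, and of the 1118 windows of 125 bases, the read length, in each coding sequence, 624 in Serpina1a and in Serpina1c, 289 in Serpina1b, 280 in Serpina1d and 158 in Serpina1e were also found in another copy. The split of reads between copies is therefore uncertain, least so for Serpina1e.

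Serpina1e had the widest sex difference of the 32 members. In CPM, the B6 F livers had 775, 453, 46.1, 456 and 1604 and the B6 M livers 2139.6, 4628, 8661, 2631 and 8333. The C3 F livers had 476, 207, 570.2, 2139 and 808 CPM, and the C3 M livers 11834, 14261, 16631, 14401 and 14077 CPM. F and M livers did not overlap in either strain, and all C3 M livers lay above every other liver. The log2 fold change of F over M was -3.16 (SE 0.60, adjusted p = 5.5e-04) in B6 and -4.52 (SE 0.65, adjusted p = 3.9e-05) in C3. Within the pools it was -2.86, -5.54 and -3.01 in B6 and -3.55, -4.76 and -5.39 in C3. The level varied from liver to liver as in few other members, with an SD of 87.7% of the mean in B6 F, 58.4% in B6 M, 90.2% in C3 F and 11.9% in C3 M livers. The call in B6 was lost without B6 F livers 1, 2 or 4 or B6 M livers 3 or 5 (adjusted p = 0.00112 to 0.00246). Between strains Serpina1e did not pass: the log2 fold change of C3 over B6 was 1.76 (SE 0.60, adjusted p = 0.0289) in M livers, although these did not overlap, and 0.40 (SE 0.56, adjusted p = 0.631) in F livers.

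Serpina1c was the other copy that was higher in males. It had 2835, 2592, 2203, 3177 and 3518 CPM in B6 F, 4366, 6091, 4599, 4488 and 5473 in B6 M, 2647, 2509, 2812, 4164 and 3637 in C3 F and 4817, 5180.3, 5593, 3825 and 3522 in C3 M livers. The sexes were apart in B6 and overlapped in C3. The log2 fold change was -0.81 (SE 0.09, adjusted p = 1.4e-06) in B6 and -0.56 (SE 0.09, adjusted p = 1.0e-04) in C3, with -0.79, -0.99 and -0.74 in B6 and -0.47, -0.64 and -0.53 in C3 within the pools, and in C3 it came under the fold limit, at -0.49, without C3 M liver 1. Serpina1b varied little, with an SD of 3.35 to 6.87% of the mean within groups. It had 4613, 5038, 5006, 4459 and 4388 CPM in B6 F, 5128, 4741, 5059.9, 4844 and 4829 in B6 M, 4402, 5094, 5117, 5029.9 and 4569 in C3 F and 5239, 4849.7, 5195, 5094 and 4856 in C3 M livers. Serpina1d had 2913, 3113, 3515, 3638 and 3525, 3614, 3806, 3064, 2987 and 3702, 3548, 3302, 3212, 4268 and 3981 and 4108, 4148, 4349, 3178 and 3467 CPM in the same order of groups, which all overlapped. Serpina1a ranged over 1445 to 2524 CPM. None of the 3 was called in any comparison, and the difference nearest the threshold was that of Serpina1a between the sexes in C3, -0.34 (SE 0.07, adjusted p = 0.00128).

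Adding up the TPM of the copies, the sum without Serpina1e lay between 17164 and 22911 TPM in all 20 livers, with group means of 19058 ± 878 (B6 F), 21230.3 ± 1114 (B6 M), 19175 ± 1489 (C3 F) and 20591 ± 2001 TPM (C3 M; SD, n = 5 each). In B6 this sum did not overlap between the sexes, at 17897 to 20294 TPM in F and 20337 to 22911 in M livers, while in C3 it did. Serpina1e made up 0.401 to 11.5% of the sum of all copies in B6 F, 13.3 to 38.6% in B6 M, 1.74 to 12.9% in C3 F and 43.8 to 52.4% in C3 M livers. With it, the sum rose from 20145 ± 1780.5 in B6 F to 29031 ± 4737 TPM in B6 M livers, and from 20438 ± 2453 in C3 F to 40755 ± 3365 TPM in C3 M livers. These sums were not tested.

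**Figure D2:**
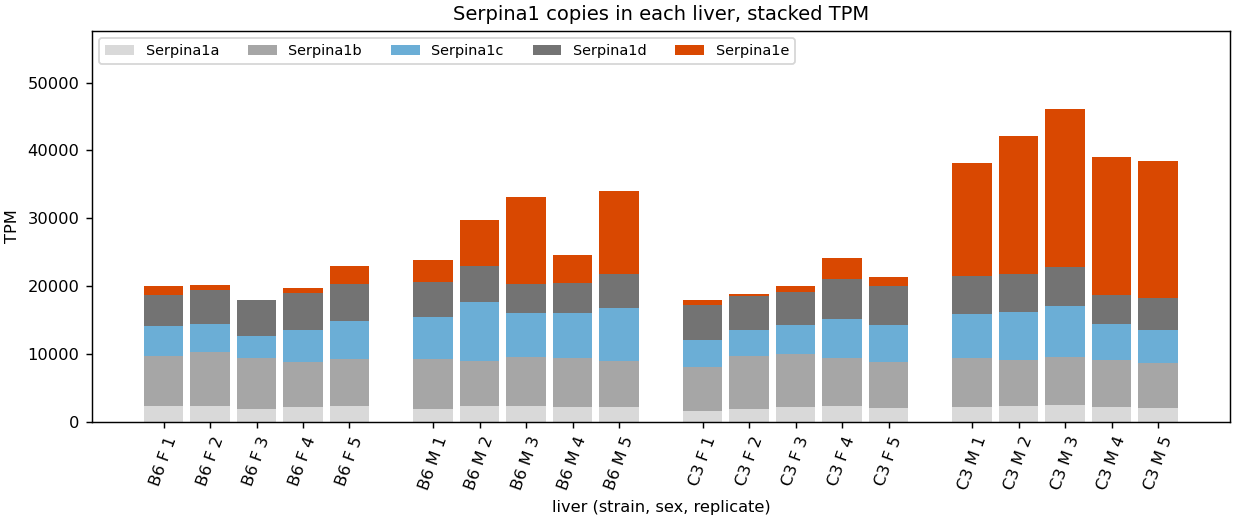
TPM (y axis) of Serpina1a, Serpina1b, Serpina1c, Serpina1d and Serpina1e stacked for each of the 20 livers (x axis, strain, sex and replicate number). The part due to Serpina1e reaches 43.8 to 52.4% of the bar in C3 M livers and 0.401 to 11.5% in B6 F livers. The other copies together lie between 17164 and 22911 TPM.

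The copies were also alike upstream of their starts. Upstream sequences of 250 bases are shown for Serpina1a, which was not called, and for Serpina1c and Serpina1e, which were higher in males. They are from RefSeq on GRCm38.p6, minus strand, and capitals mark bases unlike the aligned base of Serpina1a:
Serpina1a, chr12:103863620-103863869: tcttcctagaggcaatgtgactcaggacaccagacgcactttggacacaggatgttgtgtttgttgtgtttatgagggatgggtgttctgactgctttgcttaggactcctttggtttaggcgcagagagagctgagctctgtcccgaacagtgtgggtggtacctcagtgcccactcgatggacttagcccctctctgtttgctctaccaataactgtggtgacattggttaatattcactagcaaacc
Serpina1c, chr12:103904951-103905200: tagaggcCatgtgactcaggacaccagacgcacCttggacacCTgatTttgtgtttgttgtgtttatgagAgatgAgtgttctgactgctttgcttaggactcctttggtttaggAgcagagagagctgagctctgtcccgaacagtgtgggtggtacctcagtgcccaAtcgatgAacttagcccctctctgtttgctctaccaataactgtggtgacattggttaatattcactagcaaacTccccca
Serpina1e, chr12:103956898-103957147: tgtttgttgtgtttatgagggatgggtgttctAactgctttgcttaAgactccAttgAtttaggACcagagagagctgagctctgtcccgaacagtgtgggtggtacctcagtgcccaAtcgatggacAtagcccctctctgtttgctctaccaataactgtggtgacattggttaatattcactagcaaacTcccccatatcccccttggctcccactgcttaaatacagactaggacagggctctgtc
Identity to Serpina1a was 95.5% over 244 aligned bases in Serpina1c and 95.3% over 193 in Serpina1e, whose annotated start lies further downstream, so that its last bases have no partner in the windows of the others. The motif TTCNNNGAA, to which STAT factors are known to bind, was searched in windows of 300 bases around gene starts, where both strands read alike. It was in 8.3% of 32851 RefSeq windows and in 4 of the 22 members with a window: Serpina11, Serpina3f, Serpina3g and Serpinb6a. None of the Serpina1 windows held these letters.

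The Serpina3 genes are the mouse relatives of α1-antichymotrypsin, an acute phase inhibitor of chymotrypsin-like proteases. Serpina3k, known as contrapsin, had the highest mean TPM over the 20 livers, while in C3 M livers the mean of Serpina1e, 20163 TPM, was above that of Serpina3k, 15697 TPM. Serpina3k has a loop-coding stretch of 69 bases, and Serpina3m and Serpina3n have 75. The stretches of these 3 abundant copies are shown because they differ in much of the loop. They are on the plus strand of NCBIM37 (GENCODE vM1), and capitals mark the codons after the first 27 bases:
Serpina3k, chr12:105583479-105583547: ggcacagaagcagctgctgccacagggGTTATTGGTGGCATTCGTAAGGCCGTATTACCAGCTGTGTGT
Serpina3m, chr12:105631979-105632053: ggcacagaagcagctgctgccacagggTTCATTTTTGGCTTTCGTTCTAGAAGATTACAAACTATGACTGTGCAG
Serpina3n, chr12:105651658-105651732: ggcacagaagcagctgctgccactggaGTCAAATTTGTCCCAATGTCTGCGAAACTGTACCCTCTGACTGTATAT
The coding sequences were 92.5% identical between Serpina3k and Serpina3m, 83.7% between Serpina3k and Serpina3n and 85.2% between Serpina3m and Serpina3n. Windows of 125 bases shared with another of these 3 were 3.97% in Serpina3k and Serpina3m and 0 in Serpina3n. Other Serpina3 copies were not searched.

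These neighbours went different ways with sex. Serpina3k had 11267, 6854, 3301, 6002 and 5899.8 CPM in B6 F and 8539.9, 10415, 20189.6, 11928 and 14835 in B6 M livers, which overlapped. In C3 it had 6809, 5404, 7183, 8080.2 and 5825 CPM in F and 11051, 12437, 14367, 17375 and 11467 in M livers, which did not. The log2 fold change was -1.01 (SE 0.21, adjusted p = 9.8e-04) in B6 and -1.09 (SE 0.21, adjusted p = 5.9e-04) in C3, with -1.06, -1.37 and -0.82 in B6 and -0.96, -0.73 and -1.48 in C3 within the pools. Both calls sat close to the threshold. That in B6 was lost without B6 F livers 2, 3, 4 or 5 or B6 M livers 1, 2, 3 or 5 (adjusted p = 0.00124 to 0.00497), and that in C3 without C3 F livers 2, 3 or 5 or C3 M livers 1, 2, 3, 4 or 5 (adjusted p = 0.0011 to 0.0023). Serpina3m was higher in F, with 475, 425, 435, 416 and 306 CPM in B6 F, 315, 242, 266, 321 and 224 in B6 M, 428, 619, 514, 450.1 and 463 in C3 F and 369.6, 295, 294, 358 and 315 in C3 M livers. The log2 fold change was 0.59 (SE 0.09, adjusted p = 9.0e-05) in B6 and 0.58 (SE 0.09, adjusted p = 1.4e-04) in C3, and only the C3 groups were free of overlap. Serpina3n, at 257 to 634 CPM, was called in no comparison; it differed most between strains in F livers, at 0.46 (SE 0.09, adjusted p = 7.4e-04). Serpina3f, Serpina3g and Serpina3h were low, at 1.15 to 8.16, 2.89 to 12.6 and 0.143 to 0.600 CPM, and none was called. Serpina3f lies inside the annotated span of Serpina3g. Reads that could be assigned to both genes were not counted, so that the level of each is uncertain.

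**Figure D3:**
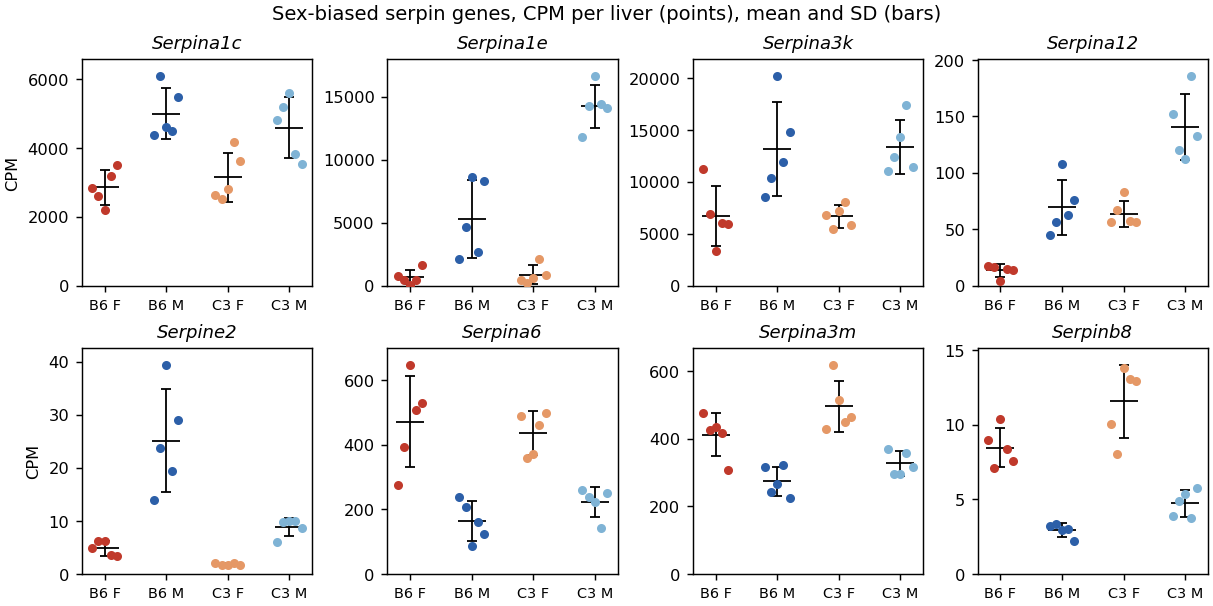
CPM per liver (y axis from 0, a scale for each gene) of the 8 serpin genes called for sex in both strains, by group (x axis, 5 livers each); points are livers and bars are mean and SD. Serpina1c, Serpina1e, Serpina3k, Serpina12 and Serpine2 have higher means in M, and Serpina6, Serpina3m and Serpinb8 in F livers.

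Serpina12, or vaspin, is an adipokine that inhibits kallikrein 7 and has been linked to insulin sensitivity. It differed both by sex and by strain. It had 17.5, 16.8, 3.71, 14.6 and 14.2 CPM in B6 F, 44.8, 56.2, 108, 62.3 and 75.9 in B6 M, 55.99, 66.8, 82.7, 56.9 and 56.5 in C3 F and 152, 120.2, 112, 186 and 133 in C3 M livers. B6 F livers lay below all others and C3 M livers above, while B6 M and C3 F livers overlapped. F over M gave a log2 fold change of -2.40 (SE 0.24, adjusted p = 4.2e-07) in B6 and -1.30 (SE 0.23, adjusted p = 2.9e-04) in C3. That of C3 over B6 was 2.30 (SE 0.24, adjusted p = 3.9e-07) in F and 1.20 (SE 0.23, adjusted p = 4.6e-04) in M livers. The calls for sex in B6 and for strain in F livers held when any liver was left out. For sex in C3 the call was lost without C3 F liver 5 or C3 M liver 4 (adjusted p = 0.00109 to 0.00121), and for strain in M livers without B6 M livers 1, 2 or 4 or C3 M livers 1, 4 or 5 (adjusted p = 0.00112 to 0.00347). Within the pools the sex difference was -2.18, -3.57 and -2.25 in B6 and -1.03, -1.34 and -1.32 in C3, and the strain difference 1.97, 3.90 and 2.11 in F and 0.83, 1.66 and 1.18 in M livers.

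Serpina6 encodes corticosteroid-binding globulin, the carrier of glucocorticoids in blood, which has no inhibitor activity. It was 2.87 times higher in F than in M livers in B6 and 2.22 times higher in C3. The livers had 277, 395, 649, 509 and 529 CPM in B6 F, 239, 208, 86.7, 160.4 and 122 in B6 M, 490.5, 358, 373, 462 and 499.9 in C3 F and 259, 238, 223, 143 and 251 in C3 M, with no overlap between the sexes. The log2 fold change was 1.52 (SE 0.15, adjusted p = 6.5e-07) in B6 and 1.15 (SE 0.16, adjusted p = 2.4e-05) in C3. Both calls held when any liver was left out, while that in C3 was lost without the pool term (adjusted p = 0.00967), and the pools gave 1.70, 1.44 and 1.49 in B6 and 1.06, 0.94 and 1.35 in C3. Between strains Serpina6 was not called, at -0.07 (SE 0.15, adjusted p = 0.761) in F and 0.30 (SE 0.15, adjusted p = 0.135) in M livers.

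Serpina5, the protein C inhibitor, was nearly silent. Its level was 0.138, 0.0603, 0, 0.136 and 0.136 CPM in B6 F and 0.321, 1.07, 1.62, 0.370 and 1.01 CPM in B6 M livers, from 0 to 7 counts per library in F and 10 to 66 in M. The sexes did not overlap, and the log2 fold change was -3.15 (SE 0.54, adjusted p = 2.3e-04); it was not called without B6 F liver 2 (adjusted p = 0.00116). In C3 F livers it had 0.198, 0.0665, 0.112, 0.180 and 0.540 and in C3 M livers 0.890, 0.835, 1.17, 0.784 and 0.214 CPM, and the difference was not called (-2.02 (SE 0.51, adjusted p = 0.00459)), though DESeq2 called it (adjusted p = 6.9e-04). The counts were few, and the size of these folds depended on the setting. Over edgeR with other scalings, DESeq2 and limma on log2(TPM + 1), it ran from -3.24 to -0.69 in B6. In C3 it ran from -2.05 to -0.51.

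Serpina4-ps1, the mouse locus at the place of the kallistatin gene and annotated as a pseudogene, was the most variable of the abundant members. It had 16.99, 8.18, 0.877, 15.7 and 30.2 CPM in B6 F, 33.9, 374, 95.7, 29.8 and 141 in B6 M, 30.9, 6.56, 11.4, 111 and 38.2 in C3 F and 254, 449, 168, 247 and 177 in C3 M livers. The sexes were apart in C3, where the log2 fold change was -3.18 (SE 0.63, adjusted p = 8.2e-04), and B6 F liver 5 overlapped the males in B6, where it was -2.99 (SE 0.63, adjusted p = 0.00133) and not called. DESeq2 called it there (adjusted p = 5.0e-05). The C3 call was lost without C3 F livers 1, 2, 3 or 5 or C3 M livers 1, 2, 4 or 5 (adjusted p = 0.00144 to 0.0035). Serpina9, centerin, known from germinal centre B cells, was low, at 0.0337 to 9.38 CPM. Its F over M difference was -0.99 (SE 0.60, adjusted p = 0.215) in B6 and -2.51 (SE 0.60, adjusted p = 0.00343) in C3, where DESeq2 called it (adjusted p = 5.1e-04). Serpina11, a secreted serpin of unsettled function, showed no call for sex but had 44.5, 44.5, 69.5, 48.98 and 54.2 CPM in B6 M and 81.97, 73.3, 82.2, 91.2 and 82.02 in C3 M livers. These did not overlap, and C3 was higher by 0.74 (SE 0.14, adjusted p = 4.8e-04) on the log2 scale; the call was lost without B6 M livers 1, 2 or 4 or C3 M livers 1, 3, 4 or 5 (adjusted p = 0.00125 to 0.00244). In F livers it had 66.5, 53.98, 30.8, 53.4 and 45.5 CPM in B6 and 65.2, 61.6, 88.5, 80.6 and 57.6 in C3, and the strain difference was 0.52 (SE 0.14, adjusted p = 0.00698). Serpina10, the protein Z-dependent inhibitor of factor Xa, was not called and came closest between strains in M livers, at 0.46 (SE 0.09, adjusted p = 8.7e-04).

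Of the 32 members, 18 lie in 797.7 kb of chromosome 12 (mm9, chr12:104854885-105652539), and 8 of these were called for sex in at least 1 strain, against 4 of the 14 members elsewhere and 9.98% of all genes tested. That difference between members inside and outside was not tested. In the order of their starts, those with a log2 fold change under -0.5 in both strains stood as follows. Serpina1c and Serpina1e are neighbours, Serpina9, Serpina12, Serpina4-ps1 and Serpina5 follow in a row after Serpina11, and Serpina3k stands alone between Serpina3h and Serpina3m. Serpina9 was called in neither strain, and Serpina11, inside this stretch, had -0.08 in B6 and -0.30 in C3. Serpina6 and Serpina3m, both higher in F livers, are the second and the second to last of the 18. This order is a description and was not tested.

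**Figure D4:**
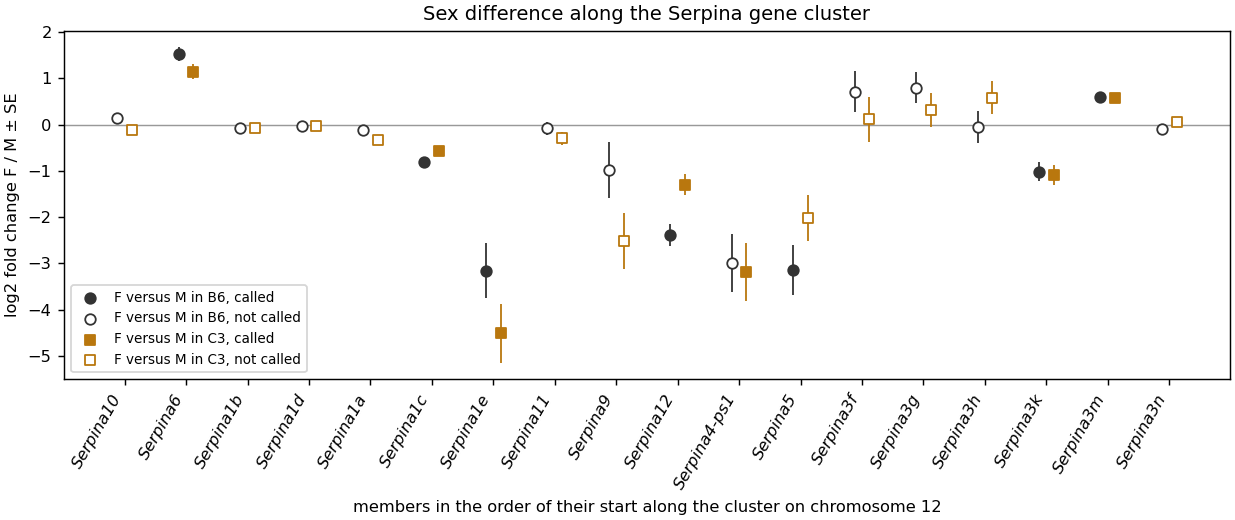
Log2 fold change of F over M (y axis, with SE) of the 18 serpin genes of the chromosome 12 cluster, in the order of their starts (x axis, not to scale); circles are B6 and squares C3, filled where called. Serpina1e in C3 lies lowest, at -4.52, and Serpina6 in B6 highest, at 1.52.

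The plasma inhibitors Serpinc1, Serpind1, Serpinf2 and Serping1, and Serpinf1, were called in no comparison. Antithrombin, Serpinc1, which blocks thrombin and factor Xa, had 2288, 2578, 2563, 2405 and 2211 CPM in B6 F, 2284, 2002, 2094, 2124 and 1964 in B6 M, 2824, 2662, 2623, 2609 and 2504 in C3 F and 2902, 2697, 2646, 2708 and 2860.4 in C3 M livers. C3 M livers lay above B6 M livers without overlap and the log2 fold change of 0.38 (SE 0.05, adjusted p = 5.5e-06) was well resolved, yet under the fold limit of 0.5. Heparin cofactor II, Serpind1, a second inhibitor of thrombin, had 699, 652, 654, 718 and 603 CPM in B6 F, 598, 601, 672, 633 and 599.6 in B6 M, 645, 763, 812, 764 and 684 in C3 F and 717, 731, 734, 757 and 695 in C3 M livers, and its widest difference was 0.26 (SE 0.06, adjusted p = 0.0017), between strains in M livers. Serpinf2, α2-antiplasmin, which blocks the plasmin that dissolves clots, had 1091, 1049, 890.1, 906 and 886 CPM in B6 F, 783, 693, 854, 814 and 715 in B6 M, 1053, 1169, 1281, 1302 and 1017 in C3 F and 1036, 984, 1033, 1118 and 1069.6 in C3 M livers. Its log2 fold change was 0.48 (SE 0.07, adjusted p = 1.5e-05) for strain in M and 0.32 (SE 0.06, adjusted p = 9.2e-04) for sex in B6, both apart without overlap and both under the fold limit. The complement C1 inhibitor, Serping1, had 619, 574, 672, 718 and 818 CPM in B6 F, 675, 766, 597, 600.1 and 732 in B6 M, 799, 549.7, 669.9, 1052 and 784 in C3 F and 811, 813, 845, 605 and 777 in C3 M livers. Its groups overlapped, with log2 fold changes between 0.01 and 0.17 in the 4 comparisons. Serpinf1, the pigment epithelium-derived factor, an angiogenesis inhibitor without protease target, had 491 to 785 CPM over all livers and log2 fold changes of 0.00 (SE 0.04) and 0.01 (SE 0.05) for sex.

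**Figure D5:**
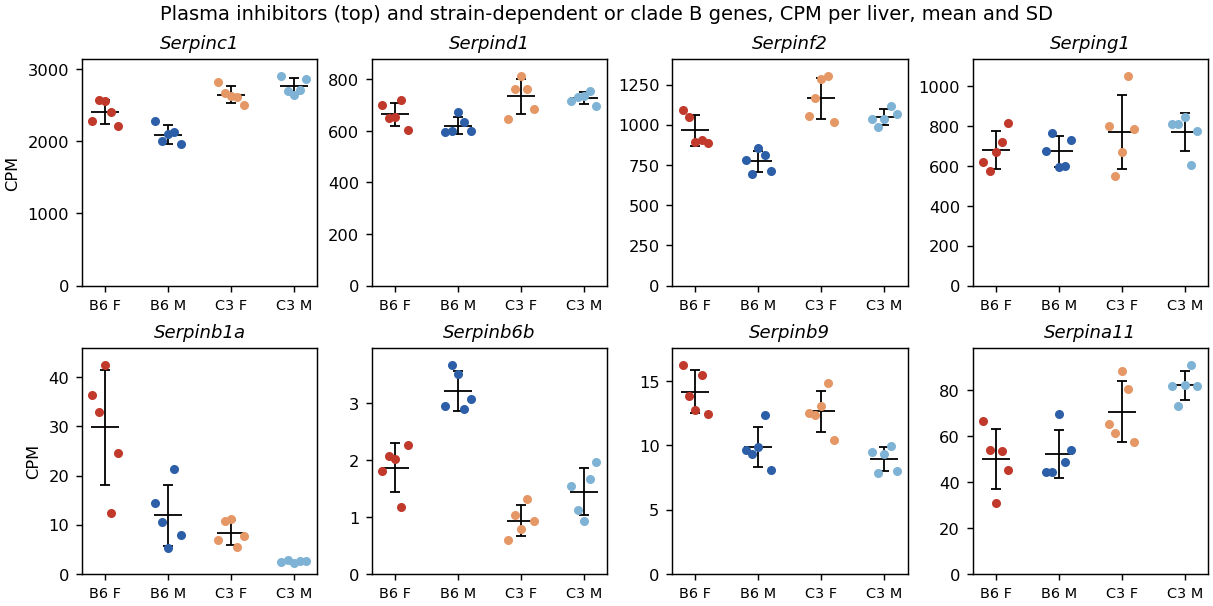
CPM per liver (y axis from 0, a scale for each gene) by group (x axis, 5 livers each) for the plasma inhibitors Serpinc1, Serpind1, Serpinf2 and Serping1 (top) and for Serpinb1a, Serpinb6b, Serpinb9 and Serpina11 (bottom); points are livers and bars are mean and SD. No gene of the top row was called, and Serpinb1a falls from a mean of 29.8 in B6 F to 2.53 CPM in C3 M livers.

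Among the intracellular clade B genes the strains were furthest apart at Serpinb1a, an inhibitor of neutrophil elastase, cathepsin G and proteinase 3. It had 36.4, 32.9, 42.5, 12.4 and 24.6 CPM in B6 F, 14.5, 10.5, 5.36, 21.3 and 8.01 in B6 M, 6.94, 10.7, 11.2, 5.44 and 7.78 in C3 F and 2.48, 2.76, 2.28, 2.54 and 2.61 in C3 M livers. B6 livers lay above C3 livers of the same sex without overlap. C3 over B6 gave a log2 fold change of -1.78 (SE 0.28, adjusted p = 6.9e-05) in F and -2.19 (SE 0.32, adjusted p = 2.6e-05) in M livers, and within the pools it was -1.42, -2.61 and -1.65 in F and -1.85, -2.49 and -2.05 in M livers. Both calls held when any liver was left out. F was above M in C3, at 1.69 (SE 0.32, adjusted p = 5.9e-04), a call lost without C3 F livers 2, 3, 4 or 5 or C3 M livers 1, 3, 4 or 5 (adjusted p = 0.00108 to 0.00378); in B6 the same difference was 1.28 (SE 0.27, adjusted p = 0.00154) and not called, though DESeq2 called it (adjusted p = 3.8e-04). Serpinb6b, a relative of the cathepsin G inhibitor Serpinb6a, had 2.95, 3.67, 3.50, 2.89 and 3.07 CPM in B6 M and 1.55, 1.12, 0.929, 1.66 and 1.96 in C3 M livers, with no overlap and a log2 fold change of -1.16 (SE 0.21, adjusted p = 3.3e-04). That call was lost without B6 M livers 2 or 3 or C3 M livers 2, 3 or 4 (adjusted p = 0.00101 to 0.00154). In F livers it had 1.81, 2.07, 2.02, 1.17 and 2.26 CPM in B6 and 0.595, 1.04, 0.784, 1.32 and 0.931 in C3, a difference of -0.99 (SE 0.22, adjusted p = 0.00209) that was not called except by DESeq2 (adjusted p = 8.3e-05) and without B6 F liver 4 or C3 F liver 4. Serpinb6a, at 10.5 to 20.4 CPM, was not called.

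Serpinb8, an inhibitor of furin-like proteases, was higher in F in both strains. It had 9.01, 7.08, 10.4, 8.35 and 7.55 CPM in B6 F, 3.21, 3.37, 2.94, 3.01 and 2.18 in B6 M, 10.05, 8.02, 13.8, 13.1 and 12.9 in C3 F and 3.91, 4.87, 5.36, 3.75 and 5.75 in C3 M livers, with no overlap of the sexes. Its log2 fold change was 1.52 (SE 0.16, adjusted p = 1.5e-06) in B6 and 1.33 (SE 0.16, adjusted p = 6.6e-06) in C3, and both calls held when any liver was left out. Serpinb9, the inhibitor of granzyme B, had 16.3, 13.9, 12.8, 15.4 and 12.5 CPM in B6 F and 9.62, 9.36, 9.90, 12.3 and 8.10 in B6 M livers, without overlap. Its difference of 0.53 (SE 0.10, adjusted p = 8.4e-04) just passed the fold limit and was lost without B6 F livers 1, 2, 3, 4 or 5 or B6 M livers 1, 2, 3 or 5 (adjusted p = 0.00116 to 0.00352); in C3 it had 12.5, 12.4, 13.1, 14.8 and 10.4 CPM in F and 9.48, 7.83, 9.35, 9.93 and 7.99 in M livers, a difference of 0.47 (SE 0.11, adjusted p = 0.00234), under the limits except in limma on log2(TPM + 0.1) (adjusted p = 3.4e-04).

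Serpine2, protease nexin-1, inhibits thrombin and plasminogen activators at cell surfaces. It was higher in M livers and higher in B6. The values were 4.82, 6.23, 6.14, 3.63 and 3.32 CPM in B6 F, 14.01, 23.7, 39.4, 19.3 and 29.03 in B6 M, 2.02, 1.66, 1.66, 1.98 and 1.68 in C3 F and 6.03, 9.73, 9.98, 9.93 and 8.74 in C3 M livers. Within each strain the sexes did not overlap, nor did the strains within each sex, and the C3 F livers were the lowest of all. The sex difference was -2.36 (SE 0.23, adjusted p = 3.2e-07) in B6 and -2.38 (SE 0.25, adjusted p = 1.2e-06) in C3, and that of C3 over B6 was -1.43 (SE 0.25, adjusted p = 2.4e-04) in F and -1.42 (SE 0.22, adjusted p = 6.8e-05) in M livers. Within the pools the sex difference was -2.90, -1.18 and -2.32 in B6 and -2.40, -1.82 and -2.54 in C3. Leaving out single livers ended only the strain call in F livers, without B6 F liver 2 or C3 F livers 2 or 3 (adjusted p = 0.00102 to 0.0013). Serpini1, neuroserpin, stayed at 0.0920 to 0.778 CPM and was not called. Serpinh1, the collagen chaperone HSP47, was not called, and was lower in C3 F than in all B6 F livers, at -0.74 (SE 0.18, adjusted p = 0.00353), a difference that DESeq2 called (adjusted p = 2.6e-04).

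No member was called for a sex difference that differed between strains, where 0.401% of all genes were. The unadjusted p of edgeR was under 0.05 for 5 members (Serpinc1, Serpina12, Serpinh1, Serpina1a and Serpinf2), that of DESeq2 and that of limma on log2(TPM + 1) for 6 members each, and neither tool called a member. The smallest adjusted p was that of Serpinc1, whose interaction was -0.25 (SE 0.07, adjusted p = 0.0538). DESeq2 gave it an adjusted p of 1.1e-04 at a log2 difference of -0.26, under the fold limit, and limma on log2(TPM + 1) one of 0.0383. The interaction of Serpina12 was 1.10 (SE 0.32, adjusted p = 0.0705). For Serpina1e, with sex differences of -3.16 and -4.52, the interaction was -1.36 (SE 0.78, adjusted p = 0.42). The 4 members called for sex in a single strain were not shown to differ between strains, at 1.13 (SE 0.79, adjusted p = 0.524) for Serpina5, -0.05 (SE 0.15, adjusted p = 0.913) for Serpinb9, -0.19 (SE 0.84, adjusted p = 0.95) for Serpina4-ps1 and 0.40 (SE 0.42, adjusted p = 0.698) for Serpinb1a.

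The livers at the ends of their groups were also counted, over the members alone. The same count was not made over all genes, so that a trait of the whole library cannot be told apart. B6 F liver 3, the only B6 F liver of pool 2, was the lowest of its group for 16 of the 32 members, against 2 to 8 for the other B6 F livers. In the other groups, C3 F liver 4 was the highest for 14 members, C3 F liver 2 the lowest for 13 and B6 M liver 1 the lowest for 12. B6 F liver 3 had 46.1 CPM of Serpina1e, 3301 of Serpina3k, 3.71 of Serpina12 and 0.877 of Serpina4-ps1, each below every other liver of the study. It also had the highest Serpina6 of all, 649 CPM. Without B6 F liver 3 the B6 F over M difference was still called for Serpina1e, Serpina12 and Serpina6 and was not called for Serpina3k.

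Of 21 listed proteases that serpins restrain, 18 were tested. Called were 1 of the 18 for sex in B6, 0 for sex in C3, 3 for strain in F and 4 for strain in M livers, where 6.34, 6.90, 9.40 and 9.64% of all genes were. F7, coagulation factor VII, was higher in F than in M livers of B6, at a log2 fold change of 0.63 (SE 0.04, adjusted p = 3.3e-09), and no listed protease was called for sex in C3. In C3, F12, factor XII, was lower than in B6, at -0.76 (SE 0.05, adjusted p = 5.9e-10) in F and -0.71 (SE 0.05, adjusted p = 1.6e-09) in M livers, and F11, factor XI, was higher in M livers, at 0.76 (SE 0.13, adjusted p = 1.6e-04). C1rb and C1s2, second copies of the complement C1r and C1s genes, were called higher in C3 in both sexes. C1s2 averaged 0.0122 CPM in B6 F, 0.0518 in B6 M, 28.8 in C3 F and 28.6 in C3 M livers. C1rb averaged 0.0552, 0.0258, 9.54 and 38.0 CPM in the same order. Its C3 M livers spanned 10.95 to 137.98 CPM (SD 55.9), so that their mean was raised by the highest liver. Its C3 F livers spanned 7.78 to 10.78 CPM, and its sex difference in C3 was not called (adjusted p = 0.0899). With B6 livers at or near 0 counts no fold between strains is given for C1s2 or C1rb. The list's median log2 fold change was 0.02 and -0.01 for sex in B6 and C3, and 0.12 and 0.10 for strain in F and M livers.

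Some liver serpins are known to rise in the acute phase response, and 17 other genes of that response were listed and tested. Called were 2 of the 17 for sex in B6, 1 for sex in C3, 1 for strain in F and 3 for strain in M livers. Of all genes, 6.34, 6.90, 9.40 and 9.64% were called in the same order. Whether the list differs from these shares was not tested. Apcs, serum amyloid P component, was higher in C3, at 2.04 (SE 0.19, adjusted p = 8.8e-08) in F and 2.67 (SE 0.19, adjusted p = 3.6e-09) in M livers, and higher in F than in M livers of B6, at 1.09 (SE 0.18, adjusted p = 2.0e-04). Itih4 was higher in F livers of B6, at 0.71 (SE 0.08, adjusted p = 2.6e-06). Saa4 was higher in M livers of C3, at -0.69 (SE 0.13, adjusted p = 7.8e-04). Saa3 and Orm2 were lower in C3 M than in B6 M livers, at -1.25 (SE 0.24, adjusted p = 5.9e-04) and -1.59 (SE 0.30, adjusted p = 4.6e-04). The list's median log2 fold change was 0.11 and 0.09 for sex in B6 and C3, and 0.17 and 0.13 for strain in F and M livers.

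Markers of hepatocytes were at the high level of whole liver. The summed level of the 5 hepatocyte markers was 84642 to 117645 CPM in B6 F and 66591 to 91650 in B6 M livers. In C3 it was 123807 to 153274 CPM in F and 97078 to 124288 in M livers, above B6 of the same sex without overlap. Most of this sum was the gene Alb. It averaged 88003 CPM in B6 F, 66015 in B6 M, 122610 in C3 F and 93641 in C3 M livers. The median log2 fold change of the 5 markers was -0.25 and -0.31 for sex in B6 and C3, and 0.23 for strain in both sexes. For sex, Ttr, Apoa1, Tat and Hnf4a had log2 fold changes under 0 in both strains, and Alb above 0. For strain, Tat was under 0 in both sexes and Hnf4a in F livers. The 5 cholangiocyte markers summed to 21.6 to 43.6 CPM. Apoa1 was higher in C3 in both sexes. Markers of other cells moved with the comparisons. Of 8 Kupffer cell markers, 5 were called lower in C3 F and 3 in C3 M than in the B6 livers of the same sex. Of all genes, 9.40 and 9.64% were called there in either direction. All 8 had log2 fold changes under 0 in both sexes, with medians of -0.73 and -0.48. For sex the medians were 0.51 in B6 and 0.38 in C3. Their summed level was 457 to 562 CPM in B6 F, 294 to 417 in B6 M, 300.0 to 439 in C3 F and 218 to 321 in C3 M livers. The medians of these sums were 526, 361, 335 and 267 CPM in the same order of groups. Vsig4 was the 1 Kupffer cell marker called higher in F in both strains. The sinusoidal endothelial markers summed to 311 to 481 CPM with 1 call of 6, Lyve1 for strain in F livers, and the 7 stellate cell and fibroblast markers, with no call, to 536 to 656 CPM in B6 F, 436 to 501 in B6 M, 439 to 474 in C3 F and 368 to 409 in C3 M livers. Lymphocyte markers, with no call among 6 tested, summed to 3.10 to 5.11 CPM in B6 F, 1.41 to 4.59 in B6 M, 1.98 to 3.33 in C3 F and 0.696 to 1.21 in C3 M livers. Their median log2 fold change was 0.45 and 1.43 for sex in B6 and C3, and -0.68 and -1.53 for strain in F and M livers. Neutrophil markers summed to 1.01 to 4.75 CPM, with S100a9 called higher in F in C3 and Ly6g higher in F in B6 among 3 tested. For sex, 6.34% of all genes tested were called in B6 and 6.90% in C3. S100a9 averaged 0.845 CPM in C3 F and 0.209 in C3 M livers. Ly6g averaged 1.21 CPM in B6 F and 0.591 in B6 M livers, so that both calls rest on low levels. The cholangiocyte marker Sox9 was higher in M in both strains and higher in C3 F than in B6 F livers. In whole liver, fewer cells of a type and less RNA per cell cannot be told apart, and the part of these cells in the serpin differences was not tested.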

How the data were processed

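RNA-seq of 20 mouse livers was analysed, 5 each of B6 F, B6 M, C3 F and C3 M. The authors trimmed adapters with Cutadapt 1.9.1, aligned read pairs to mm9 with STAR 2.5.1b and assigned them to RefSeq genes by strand, using featureCounts (Subread 1.5.0-p1) without multimapping or multi-overlapping reads. The authors deposited raw counts per gene and TPM values. The gene length behind the TPM is not given in the sources used here. In the deposited tables the header of the symbol column stands over the identifiers and the reverse, so both were read by content.

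Groups and pools were taken from the sample labels. Genes kept by filterByExpr on the 4 groups (13704) were fitted with edgeR 4.0.16 in R 4.3.3, with TMM factors, group and pool, over all 20 libraries. The thresholds, an adjusted p of 0.001 and a log2 fold change of 0.5, follow the study's methods. Libraries held 27370921 to 46835745 counts. Detection was taken to start at 3 counts, 0.0641 to 0.110 CPM, a limit for counting error only, since reads were not tied to single molecules.

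The members and lists were chosen with earlier results of these data known. Named with values per liver were the members called in at least 1 comparison, the 5 members of highest mean TPM, Serpina6, Serpinc1, Serpind1, Serpinf2 and Serping1, and the loci at the count limit. Genes of the lists were named where called, besides the hepatocyte markers, and other members by their range. The values of 1 member, counted throughout and called in no comparison, are not reported here. No p was adjusted over the members alone. Alternatives were DESeq2 1.42.0, limma 3.58.1 on log2(TPM + 1) and log2(TPM + 0.1), other scalings and filters, and no pool term. Further ones were a replicate block, the 2 groups alone, an adjusted p of 0.05 without the fold limit, and each liver left out. Replicate numbers are shared by the groups but nothing in the labels ties mice of the same number.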

Additional observations from a re-analysis of the deposited data

Results flagged for a closer look

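In groups of 5 livers, a liver was singled out when its gap to the nearest other liver was over 0.71 of the range of the group. This happened in 10 of the 124 groups looked at, where chance alone would give about 1 in 20, or 6.2. The share of the range is given for each.

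In B6 F liver 3, Serpina12 was lowest at 3.71 CPM, next to 14.2 (0.760 of the range), and Serpina1a was lowest at 1614, next to 1925 CPM (0.805). In B6 M liver 4, Serpina3f was highest at 5.43, next to 2.72 CPM (0.743).

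In C3 F livers, Serpina5 was highest in liver 5 at 0.540, next to 0.198 CPM (0.722). Serpina9 was highest in C3 F liver 4 at 2.73, next to 1.02 CPM (0.763), and Serpinh1 in C3 F liver 2 at 13.9, next to 10.7 CPM (0.744).

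In C3 M liver 1 both overlapping loci were highest, Serpina3f at 8.16, next to 2.76 CPM (0.771), and Serpina3g at 9.48, next to 4.56 CPM (0.752). In C3 M liver 4 Serpina10 was highest at 269.9, next to 214 CPM (0.715), and Serping1 was lowest at 605, next to 777 CPM (0.716).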

How the results depend on the processing

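None of the 28 called differences reversed under the 11 alternatives or with a liver left out. The call was kept under every alternative for 13, in every fit with a liver left out for 15, and in all of them for 11. The counts of members called depended on the settings. At an adjusted p of 0.05 and with no fold limit, they were 16 and 17 for sex in B6 and C3. For strain they were 13 and 15 in F and M livers under that setting. Without the pool term they were 4 and 3 for sex in B6 and C3 and 3 for strain in M livers. The calls that held without the pool term were Serpina12, Serpina6, Serpinb8 and Serpine2 for sex in B6, Serpina1e, Serpinb8 and Serpine2 for sex in C3, and Serpinb1a, Serpinb6b and Serpine2 for strain in M livers. Serpina3k in B6 was also not called by DESeq2, by limma or with upper-quartile factors, and Serpina1c in C3 not by limma or with those factors. With the 2 groups alone, 5 were called for sex in B6, and DESeq2 called 5 for strain in F livers. With each liver left out in turn the counts ranged from 6 to 11 for sex in B6, 6 to 9 for sex in C3, 2 to 4 for strain in F and 2 to 5 for strain in M livers, and stayed at 0 for the interaction. The lowest counts came without B6 F liver 2 (6), without C3 F liver 5, C3 M liver 1 or C3 M liver 4 (6 each) and, for strain in M livers, without B6 M liver 2 or C3 M liver 4 (2 each). Why these settings moved the counts was not tested. With the replicate number as a block, the counts were 10 and 8 for sex in B6 and C3, 3 and 5 for strain in F and M livers and 0 for the interaction; Serpina4-ps1 and Serpinb1a were no longer called for sex in C3. For livers of the same number, deviations from the group mean had mean correlations of -0.19 and -0.24 between sexes in B6 and C3. Between strains the means were 0.22 and 0.18 in F and M livers. Single pairs ranged from -0.46 to 0.63. Pool was not removed, and the highest pairs, M livers 4 (0.63) and F livers 2 (0.56) of the 2 strains, shared a pool. The number was not used as a pairing. Upper-quartile scaling shifted the median of all genes by at most 0.07 (log2). Depth limits Serpina5, with 0 to 66 counts per library, and the copies of Serpina1 are limited by the reads they share.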
